A study of Mus musculus with 6 samples.

Results

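The stress keratins Krt6a, Krt6b, Krt16 and Krt17 were followed with the related hair follicle keratin Krt75 in mouse back epidermis with and without Spry1. These 5 genes were chosen by symbol from a table of 54532 genes, and all 5 passed the filter on low values, Krt6b only through the knockouts. The study set 3 samples of Spry1flox/flox mice (Control) against 3 samples of Spry1flox/flox K14-Cre-ERT2 mice (Spry1_KO). Floxed Spry1 was thus common to both groups, and so was tamoxifen, given orally for 4 weeks on 4 days of each week (0.1 mg per g). The Krt14 promoter places the inducible Cre in basal keratinocytes. Without a group that has Cre and intact Spry1, Cre activity and Spry1 loss cannot be told apart. The labels used here give no age and do not say whether each sample is a separate animal, so the p-values cover only the spread among these libraries, part of which could be technical.

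Keratins form filaments from pairs of 1 type I and 1 type II chain, so each type II gene needs a type I partner. Krt6a, Krt6b and Krt75 encode type II chains, and Krt16 and Krt17 encode type I chains. In healthy skin these keratins are known mainly from hair follicles, nails and the thick skin of palms and soles. In the epidermis between follicles they are known as stress keratins, switched on after wounding, in psoriasis and in other states of rapid keratinocyte growth. Krt75 marks the companion layer of the hair follicle and is not known as a wound keratin.

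The genes lie in the keratin clusters of chromosomes 15 and 11 (GRCm38), each on the minus strand. Krt6b spans chr15:101676023-101680287 and Krt6a chr15:101689910-101694307, with 9.622 kb between them, and Krt75 lies at chr15:101563345-101573904. Krt16 spans chr11:100246091-100248902 and Krt17 chr11:100256217-100261029. Krt6a and Krt6b are close copies: 1622 of 1659 aligned coding bases (97.8%) were identical, against 75.3% for Krt16 with Krt17 and 74.5% for Krt6a with Krt75. The following 90-base stretches of coding sequence, read 5′ to 3′ from the GENCODE M21 transcripts, show how far reads can separate the copies. Capitals mark bases that differ between the partners. The first pair is the stretch of exon 4 in which Krt6a and Krt6b differed most, by 12 bases (Krt6a chr15:101692484-101692573, Krt6b chr15:101678303-101678392, minus strand).
Krt6a: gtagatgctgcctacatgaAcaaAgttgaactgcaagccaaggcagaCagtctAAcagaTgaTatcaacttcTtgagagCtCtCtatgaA
Krt6b: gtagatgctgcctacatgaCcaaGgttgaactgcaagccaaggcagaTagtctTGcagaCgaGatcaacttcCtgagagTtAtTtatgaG
A stretch of exon 1 was the same in both genes (Krt6a chr15:101694126-101694215, Krt6b chr15:101680101-101680190, minus strand), and a read inside it cannot be assigned to either.
Krt6a and Krt6b: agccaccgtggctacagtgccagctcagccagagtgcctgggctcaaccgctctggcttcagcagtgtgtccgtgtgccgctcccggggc
Krt16 and Krt17 still differed by 4 bases in the stretch of exon 1 where they were most alike (Krt16 chr11:100248456-100248545, Krt17 chr11:100260618-100260707, minus strand).
Krt16: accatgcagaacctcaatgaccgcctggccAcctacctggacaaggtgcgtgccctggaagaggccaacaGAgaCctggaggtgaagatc
Krt17: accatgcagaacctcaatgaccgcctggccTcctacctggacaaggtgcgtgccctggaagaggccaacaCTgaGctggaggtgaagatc

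The longest run shared by the Krt6a and Krt6b transcripts was 280 bases. Of all 100-base windows of the Krt6b transcript, 30.1% also occurred in Krt6a, as did 44.5% of 50-base and 18.8% of 150-base windows. Krt16 and Krt17 shared no 100-base window. The read length, the treatment of reads that fit several places and the strandedness were not found in the labels, so the split between Krt6a and Krt6b is less certain than their sum. Krt6a has a further overlap, with the antisense gene Gm49428, over 471 of its 2278 transcript bases.

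Levels are given as FPKM, fragments per kilobase of gene scaled to sequencing depth, so genes of different length can be compared. Reads recovered from the FPKM values summed to 18383332 to 21024721 per sample. The deleted gene, Spry1, lay at 25.8 to 34.4 FPKM in the controls and at 1.06 to 1.49 FPKM in the knockouts. The epidermal keratins Krt5, Krt14, Krt1 and Krt10 each averaged at least 782 FPKM in both genotypes. A pair of samples stood apart. Control replicate 3 lay at -32.2 on the second principal component of log2(FPKM + 1), against 15.6 and 17.4 for the other controls. Spry1_KO replicate 2 had Eif2s3y, a gene of the Y chromosome, at 19.3 FPKM, where the remaining knockouts had 0.203 and 0.0438 FPKM and the controls were listed at 0. Results are therefore also given without this pair.

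Of the 5 genes, 4 rose in the knockouts and none fell, where 54% of all 12629 genes tested passed and 29.6% rose (limma on log2(FPKM + 1), Benjamini-Hochberg adjusted p under 0.05). The median log2 fold change of the 5 was 4.68, against 0.03 over all tested genes. The groups did not overlap for the 4 that rose, as for 64.2% of all tested genes in either direction and 34.9% in this direction. The rises ran from 2.86-fold for Krt17 to 2418-fold for Krt6b as ratios of group means. Krt6b averaged 0.551 FPKM in the controls and passed the filter only through the knockouts, so only a rise could be called for it. Krt75 gave overlapping groups. In bulk epidermis, more cells of a type and more RNA per cell cannot be told apart.

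Krt6b, a type II chain known to be induced by wounding, read 0.982, 0.465 and 0.207 FPKM in Control replicates 1 to 3. It read 1008, 1799 and 1192 FPKM in Spry1_KO replicates 1 to 3. Every control thus stood below 1 FPKM, and the lowest knockout was Spry1_KO replicate 1. The control values rested on 40, 19 and 9 recovered reads, and for the 9 reads the exact 95% Poisson interval ran from 0.0945 to 0.392 FPKM, counting error only. The log2 fold change was 9.73 ± 0.26 (SE; limma adjusted p of 3.71e-06), or 9.33 without Control replicate 3 and Spry1_KO replicate 2. Because 1 FPKM is added before the logarithm, this value understates the rise of a gene so low in the controls, and limma-voom on recovered reads gave 11.30.

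Krt6a, the more abundant copy in normal skin and a keratin of the follicle's outer root sheath, read 92.8, 64.6 and 31.7 FPKM in the controls. In the knockouts it read 1275, 1989.6 and 1337 FPKM. The highest control lay far below the lowest knockout, and Control replicate 3 and Spry1_KO replicate 2 were the extremes on either side. The log2 fold change was 4.68 ± 0.38 (SE; limma adjusted p of 0.000148). Without that pair of samples it was 4.06 (adjusted p of 0.000296). Gm49428, on the opposite strand, read 0.757 ± 0.538 and 5.10 ± 1.71 FPKM (SD, n = 3 each), and where the transcripts overlap, reads of the genes are not separable without strand.

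Krt16, the type I chain that partners Krt6 chains in wounded epidermis, read 11.9, 36.4 and 16.9 FPKM in the controls. The knockouts read 2716, 3183 and 2967 FPKM. Its knockout samples lay close together, with a coefficient of variation of 7.91%, against 25.8% for Krt6a and 31.0% for Krt6b. The log2 fold change was 7.17 ± 0.36 (SE; limma adjusted p of 2.64e-05), or 7.01 without the pair of samples that stood apart.

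Krt17, a type I chain of follicles that is also induced by injury and inflammation, was already high in the controls, at 796, 978 and 525 FPKM. In the knockouts it read 2612, 2097 and 1870.1 FPKM. The groups did not overlap, and the gap between them was the narrowest among the 4 genes that rose. The log2 fold change was 1.55 ± 0.25 (SE; limma adjusted p of 0.0024), or 1.32 without the pair (adjusted p of 0.00943). Spry1_KO replicate 1, which was the lowest knockout for the other stress keratins and for Krt75, was the highest for Krt17.

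Krt75, the companion layer keratin, read 29.1, 18.8 and 14.9 FPKM in the controls. Its knockout levels were 17.0, 35.5 and 19.7 FPKM. The highest knockout was Spry1_KO replicate 2 and the lowest control was Control replicate 3. The log2 fold change was 0.17 ± 0.32 (SE; limma adjusted p of 0.673), with a 95% interval from -0.59 to 0.94. Its sign was not stable, and without that pair it was -0.34. A rise on the scale of the other members lies outside the interval, while a change in either direction of the size of its bounds does not.

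**Figure D1:**
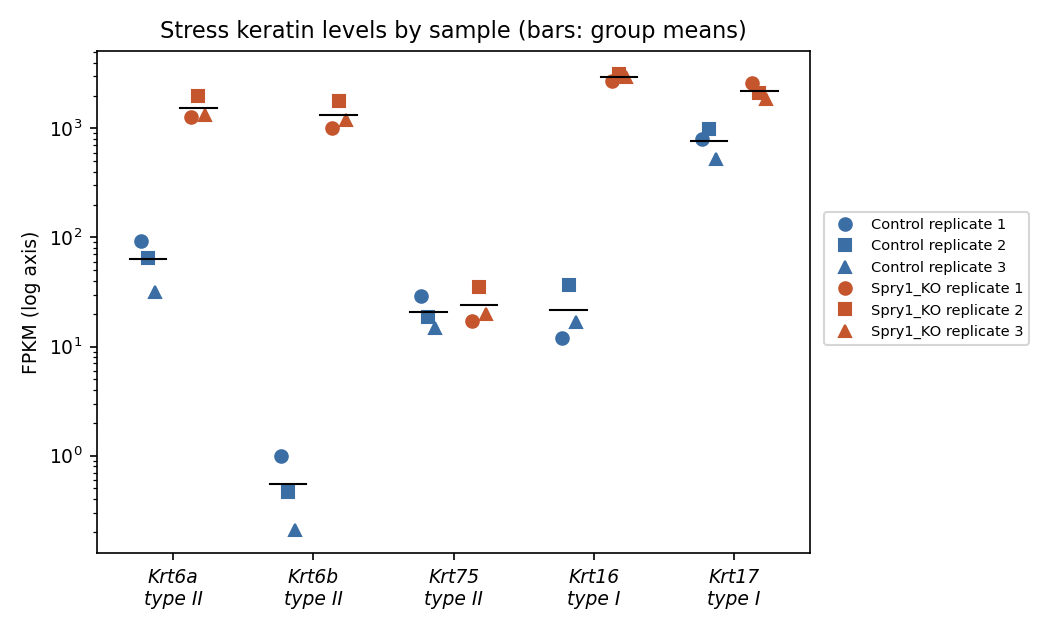
FPKM on a log axis for each gene in each of the 6 samples, controls in blue and knockouts in orange, with bars at the group means. Krt6b spans from 0.207 to 1799 FPKM, Krt17 starts at 525 FPKM in its lowest control, and the points of Krt75 overlap between the genotypes.

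The order of levels among the members differed between the genotypes. In the controls Krt17 averaged 766 ± 228 FPKM, Krt6a 63.0 ± 30.6, Krt16 21.7 ± 12.9, Krt75 20.9 ± 7.33 and Krt6b 0.551 ± 0.395 (SD, n = 3 each). Krt6a, Krt16 and Krt75 overlapped with their neighbours in that order, while Krt17 stood above and Krt6b below all others. In the knockouts Krt16 came first at 2955 ± 234 FPKM, followed by Krt17 at 2193 ± 380, Krt6a at 1534 ± 396, Krt6b at 1333 ± 414 and Krt75 at 24.1 ± 9.99 (SD, n = 3 each). Krt16 stood above Krt17 in every knockout sample. The ranges of Krt17 and Krt6a overlapped, as did those of Krt6a and Krt6b, but Krt6a read above Krt6b within each of the 3 samples. Among 54 keratin genes ranked by mean FPKM, Krt16 moved from place 13 to place 4, Krt6b from 23 to 8, Krt6a from 11 to 7 and Krt17 from 7 to 6.

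The balance of the Krt6a and Krt6b sum to the Krt16 and Krt17 sum shifted towards type II. The sum of Krt6a and Krt6b was 0.116, 0.0641 and 0.0589 times the sum of Krt16 and Krt17 in the controls. In the knockouts the ratio was 0.428, 0.717 and 0.523. All 6 samples thus held more type I than type II stress keratin transcript, by 8.61-fold to 17.0-fold in the controls and by 1.39-fold to 2.33-fold in the knockouts. The mean log2 ratio was -3.72 ± 0.53 and -0.88 ± 0.38 (SD, n = 3 each), a difference of 2.84. An exact permutation test, two-sided, gave p = 0.1, the smallest that 3 samples against 3 allow, so no ratio here can pass 0.05. The difference was 2.46 without Control replicate 3 and Spry1_KO replicate 2. Its direction depended on Krt17 being in the type I sum. Against Krt16 alone, the Krt6a and Krt6b sum was higher in every control, at 93.8, 65.1 and 31.9 against 11.9, 36.4 and 16.9 FPKM. In the knockouts the sum read 2283, 3788 and 2530 against 2716, 3183 and 2967 FPKM, and was higher only in Spry1_KO replicate 2.

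Single pairs of genes moved in opposite directions. Krt6a exceeded its partner Krt16 in every control, by 7.79, 1.78 and 1.88 times, and lay below it in every knockout, at 0.469, 0.625 and 0.451 times. That difference in mean log2 ratio was -2.54, and Control replicate 1 weighed on it, since it was -1.84 without that sample. Krt6a against Krt17 moved the other way, from 0.117, 0.0660 and 0.0604 to 0.488, 0.949 and 0.715 times. Krt6b rose against both type I chains, with differences in mean log2 ratio of 4.22 against Krt16 and 9.92 against Krt17. For the ratio to Krt16 this was 5.13 without Control replicate 1. Krt75 fell against Krt17, by 1.37 on the log2 scale. For each of these ratios the groups did not overlap. The exact permutation p was 0.1 for every one of the 8 ratios computed, and stayed 0.1 after Benjamini-Hochberg adjustment.

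Within each type the 2 stress keratins came to similar levels. Krt6b was 1.06%, 0.720% and 0.651% of Krt6a in the controls and 79.0%, 90.4% and 89.2% in the knockouts. The control shares also limit how many Krt6a reads could have been credited to Krt6b there, to at most 1.06%. No such limit can be read for Krt6b reads credited to Krt6a in the knockouts. Krt16 was 0.0150, 0.0372 and 0.0321 times Krt17 in the controls and 1.04, 1.52 and 1.59 times in the knockouts. The controls' stress keratin pool was therefore mostly Krt17 with some Krt6a, while in the knockouts the means of the 4 genes lay between 1333 and 2955 FPKM.

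**Figure D2:**
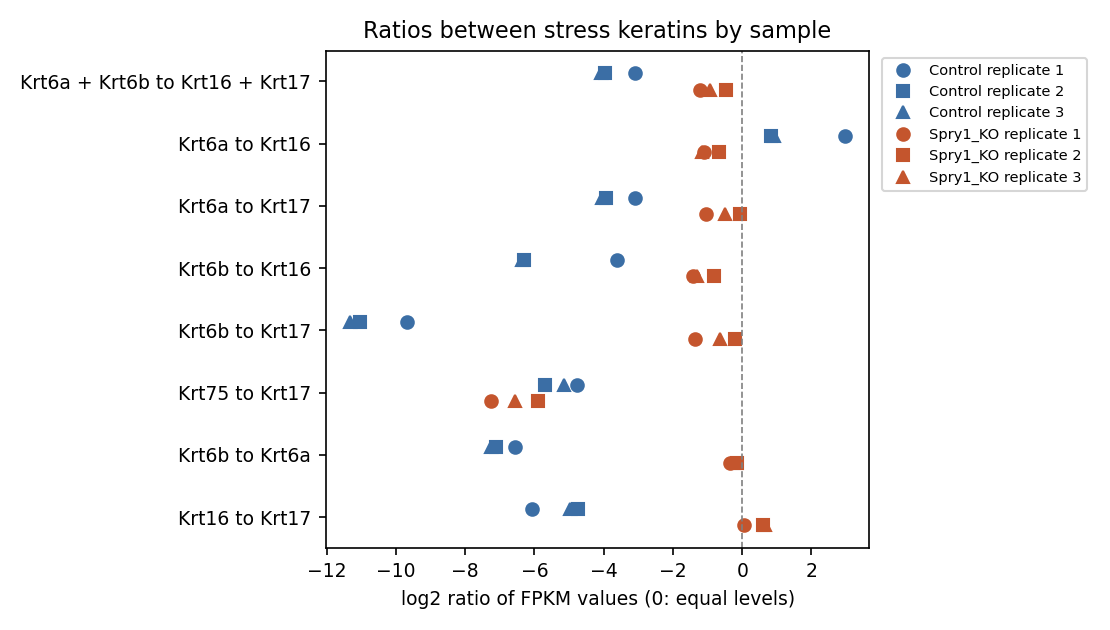
Log2 ratios of FPKM values for 8 gene pairs or sums, 1 point per sample, with 0 marking equal levels. For all 8 ratios the controls in blue and the knockouts in orange do not overlap, and Krt6a to Krt16 and Krt75 to Krt17 are the ratios that are lower in the knockouts.

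The members also took a larger share of all keratin transcripts. Together they held 4.72%, 5.26% and 2.68% of the FPKM sum over 54 keratin genes in the controls and 25.2%, 24.3% and 23.5% in the knockouts. The difference of 20.1 percentage points had an exact permutation p of 0.1, two-sided, and 0.12 after Benjamini-Hochberg adjustment over 18 shares. Krt16 alone went from 0.104% ± 0.0616 to 8.97% ± 0.479 and Krt17 from 3.71% ± 1.18 to 6.72% ± 1.66 (SD, n = 3 each). Krt75 held 0.102% ± 0.0411 and 0.0712% ± 0.0206, with overlapping groups. The members made up 0.992% of type II and 6.57% of type I keratin transcript in the controls, and 21.5% and 26.3% in the knockouts. Of all genes' FPKM they held 0.234% ± 0.0575 and 1.80% ± 0.248 (SD, n = 3 each).

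The balance of the 2 keratin types as a whole overlapped between the genotypes. All type II keratins summed to 0.686, 0.727 and 0.777 times all type I keratins in the controls and to 0.679, 0.655 and 0.686 times in the knockouts. The overlap was narrow, with Spry1_KO replicate 3 at 0.6859 just above Control replicate 1 at 0.6858. The remaining knockouts lay below every control, so the ratio leaned towards type I in the knockouts. The type II share of the keratin sum was 42.2% ± 1.52 and 40.2% ± 0.581 (SD, n = 3 each; exact permutation p = 0.2, two-sided). The shift in the stress keratin sums was thus not seen in the sum over all keratins.

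**Figure D3:**
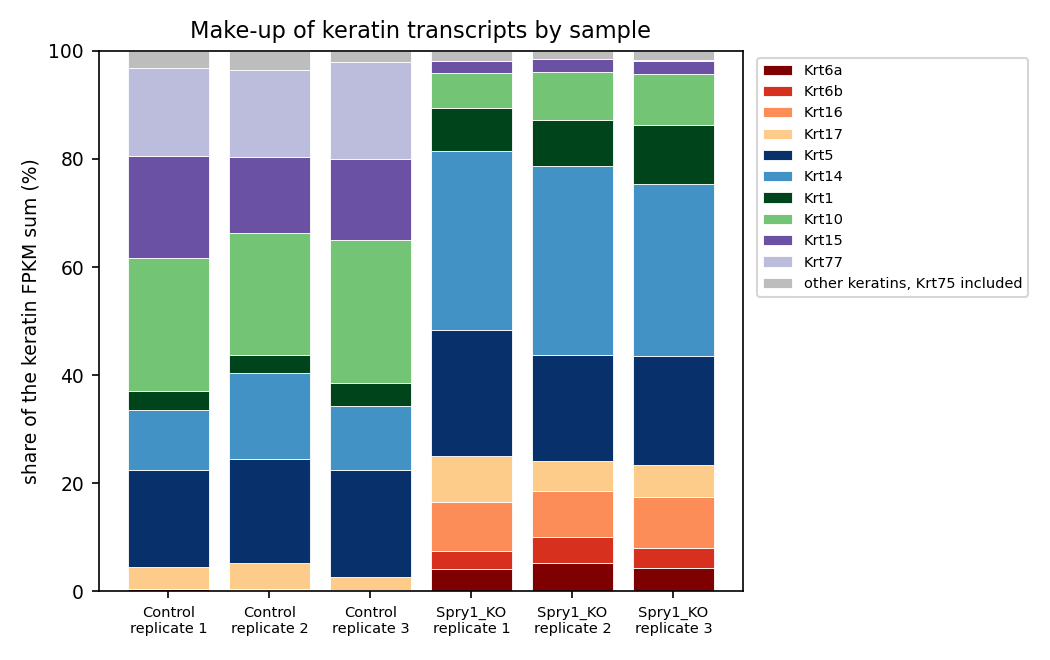
Stacked bars give the share of the keratin FPKM sum held by each abundant keratin gene in each sample, in percent. The 4 stress keratins at the foot of the bars and Krt14 are larger in the 3 knockouts, while Krt10, Krt15 and Krt77 are smaller.

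Other keratins moved both ways. Of the 18 tested keratin genes that are not members, 6 rose, 8 fell and 4 did not pass. Over all tested genes, 29.6% rose and 24.4% fell. The 18 had a median log2 fold change of -0.25, and 31 further keratin genes lay below the filter. Krt42 and Krt90 averaged 0.564 and 0.112 FPKM in the controls and passed the filter only through the knockouts, so only a rise could be called. Krt2 and Krt32 averaged 0.0944 and 0.554 FPKM in the knockouts and passed only through the controls, so only a fall could be called. Among the non-member keratins with at least 100 FPKM in either genotype, Krt14, the basal type I chain, had a log2 fold change of 2.04, and Krt1, a suprabasal type II chain, 1.94. Krt5, the basal type II chain that neighbours Krt6a on chromosome 15, rose by 0.80. Its call was lost without the pair of samples that stood apart (limma adjusted p of 0.0623), with no filter (0.339) and with a replicate block (0.0697). Krt77 fell by 7.77, Krt23 by 2.88, Krt15 by 2.10 and Krt80 by 1.47. Krt10, the suprabasal partner of Krt1, fell by 0.92, a call lost with no filter (limma adjusted p of 0.201) and with a replicate block (0.0503). Krt79, a keratin of sebaceous ducts, read 266 ± 110 and 429 ± 31.5 FPKM (SD, n = 3 each). It missed the threshold (limma adjusted p of 0.0669) except without Control replicate 2 (0.0185).

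**Figure D4:**
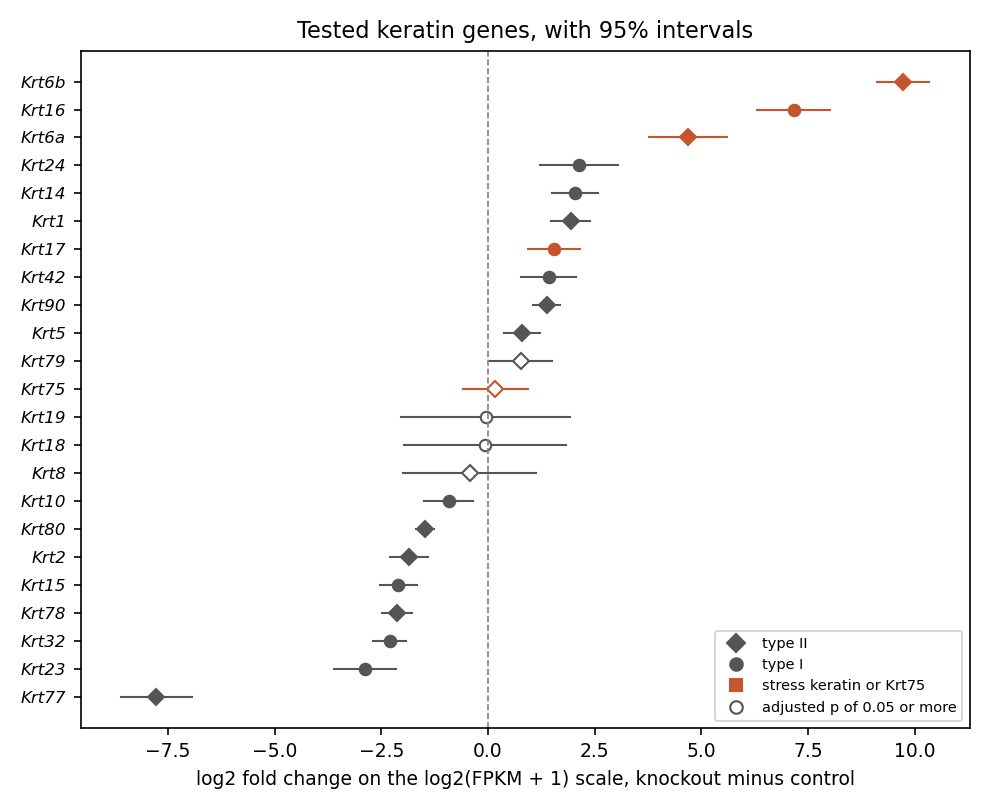
Log2 fold change with its 95% interval for the 23 tested keratin genes, type II as diamonds and type I as circles, the stress keratins and Krt75 in orange, open symbols not past the threshold. Krt6b, Krt16 and Krt6a lie to the right of all other keratins, Krt17 lies among them at 1.55, and Krt75 at 0.17 spans 0.

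The clusters also hold genes of low level next to the members, besides the abundant Krt5 and Krt14. Between Krt75 and Krt6b lie the coding genes Gm5414 and Gm5478, both below the filter. Gm5414 averaged 0.0441 FPKM in the controls and 1.36 FPKM in the knockouts, and Gm5478 averaged 0.0124 and 1.26 FPKM, each without overlap between the groups. Krt42, the next coding gene beyond Krt17, read 0.564 ± 0.485 and 3.18 ± 1.21 FPKM, and the pseudogene Gm11597, between Krt14 and Krt16, was listed at 0 in the controls and read 3.86 ± 0.511 FPKM in the knockouts (SD, n = 3 each). These levels rested on few recovered reads in the knockouts: 50, 55 and 18 for Gm5414, 71, 71 and 59 for Gm5478, and 75, 73 and 53 for Gm11597. Whether reads of the abundant keratins were credited to these genes was not tested.

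The genes with the profile closest to the mean of Krt6a, Krt6b and Krt16 were Serpinb3a, Sprr2d, S100a8, Stfa1 and S100a9, with unnamed loci left out. Likeness was the root mean square difference from the mean profile of those 3 members over the 6 samples, on log2(FPKM + 1) centred on the control mean. The 3 members had log2 fold changes of 4.68, 9.73 and 7.17, so a gene near their mean is not thereby close to each of them. Serpinb3a, a serine protease inhibitor of keratinocytes, differed by 0.28. Sprr2d, a cornified envelope precursor, differed by 0.49, and S100a8, which forms calprotectin with S100a9, by 0.63. The cystatin Stfa1 differed by 0.63 and S100a9 by 0.73. Serpinb3a, Sprr2d and Stfa1 each have near-identical relatives, among which reads may have been divided wrongly.

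Genes known to act around stress keratins were read from lists of 4 kinds, and their counts stand beside the 29.6% of all tested genes that rose and the 24.4% that fell. Of 18 tested alarmins and wound companions, 17 rose and none fell (median log2 fold change 2.99, against 0.03 over all genes). Sprr1b, Serpinb3a, Sprr2d and Sprr2h had log2 fold changes of 9.18, 7.16, 6.62 and 5.23. They averaged 0.316, 0.478, 0.186 and 0.288 FPKM in the controls and passed the filter only through the knockouts. For genes so low in the controls only a rise could be called. The list was also chosen with earlier results of these data known, so its count is no independent support. Of 24 tested transcription factors that act on stress keratin genes, 7 rose and 6 fell, with a median of -0.16. Both counts were near the shares over all genes, so the list as a whole gave no result, and the following are values of single genes. The hedgehog effector Gli2 rose by 1.37, the antioxidant regulator Nfe2l2 by 1.19 and Stat3, which acts below cytokine receptors, by 1.02. Gli2 averaged 0.492 FPKM in the controls and passed the filter only through the knockouts, so only a rise could be called for it. The added 1 FPKM also shrinks its log2 fold change, as its ratio of group means was 5.83-fold. Nr3c1, the glucocorticoid receptor, a known repressor of these keratin genes, fell by 0.97. Only 3 factors fell without Control replicate 1 or 2 or any 1 knockout sample, and with TPM scaling 4 rose and 8 fell. Under TPM scaling 2055 of all 12629 genes rose and 4470 fell.

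Of 24 tested signals and receptors that induce stress keratins, 10 rose and 6 fell, with a median of 0.27. The number that fell was near the 24.4% over all genes, and the number that rose was above the 29.6% in the fit of all samples. With any knockout sample alone left out, the number that rose was near or below the share over all genes in that fit. Il1f6, which encodes interleukin 36 alpha, went from 0.618 ± 0.438 to 65.7 ± 2.31 FPKM (SD, n = 3 each), and Il24 rose by 2.58 on the log2 scale. Il1f6 and Il24 passed the filter only through the knockouts. The receptor genes Ifngr1 and Il1r1 fell by 2.34 and 1.04. The counts were 8 and 3 without Control replicate 2, 5 and 4 without Spry1_KO replicate 1 or 3, and 6 and 3 without Spry1_KO replicate 2. More rose without Control replicate 3 (11 rose and 5 fell of 25 tested) and without the pair of samples that stood apart (12 and 5 of 24). Over all genes, 3977 of 12579 rose without Control replicate 3 and 3623 of 12621 without that pair. Over all genes, 3124 of 12681 rose without Spry1_KO replicate 1, 3117 of 12678 without replicate 2 and 3112 of 12679 without replicate 3. Of 17 tested linkers and partners of keratin filaments, 6 rose and 5 fell, with a median of -0.08, and 3 rose and 7 fell with TPM scaling. These counts too were near the shares over all genes in the same fit. As single genes, the filament bundling protein gene Flg rose by 3.53 and the chaperone gene Hspa8 by 1.37, while the linkers Dst and Ppl fell by 1.48 and 1.08.

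Of the marker lists for other cells, some moved with the genotype and others did not. Of 6 melanocyte markers 5 rose, and their summed level went from 10.5 to 13.9 FPKM in the controls to 209 to 212 FPKM in the knockouts. Of 7 tested leukocyte markers 1 rose and 6 fell, with sums of 650 to 1050 FPKM and 221 to 353 FPKM. All 6 tested skeletal muscle markers fell, with sums of 17.8 to 66.4 FPKM and 3.89 to 5.84 FPKM, and 3 of 4 tested fell without Control replicate 1. The 4 muscle markers with the lowest p averaged 0.0369 to 0.786 FPKM in the knockouts. They passed the filter only through the controls, so only a fall could be called for them. Of 6 tested fibroblast markers 3 fell and 1 rose, while 1 fell without Control replicate 3 or Spry1_KO replicate 1 and 5 without Spry1_KO replicate 3. The 3 that fell in the fit of all samples averaged 0.513 to 0.752 FPKM in the knockouts. These too passed the filter only through the controls. The fibroblast sum of 32.8 to 44.3 FPKM in the controls and 161 to 313 FPKM in the knockouts rested on the marker that rose, Postn, at 27.4 ± 10.1 and 239 ± 77.3 FPKM (SD, n = 3 each). Of 9 tested sebaceous gland markers 1 rose and none fell, with sums of 268 to 676 FPKM and 660 to 711 FPKM. That call was lost without any 1 knockout sample, while 3 rose without Control replicate 2 and 2 fell without Control replicate 3. Of 4 tested red blood cell and endothelium markers 1 fell, with sums of 76.1 to 172 FPKM and 19.4 to 95.4 FPKM, while none fell without Control replicate 1 or 2 or Spry1_KO replicate 1, 2 fell without Spry1_KO replicate 3 and 3 without Control replicate 3. Follicle markers bear on Krt6a, Krt17 and Krt75 most directly. Of 9 tested outer root sheath and companion layer markers, 2 rose, 2 fell and 5 did not pass, and the 2 that rose, Krt5 and Krt14, are also basal epidermal genes. The 2 that fell were Lgr6 and Krt15. Krt15 was also listed among the keratins of the epidermis between follicles and averaged 3323 FPKM in the controls. Krt75 is itself 1 of the 5 that did not pass, so for Krt75 the count partly repeats its own result. Without Control replicate 1, 5 of the 9 markers rose, and 1 rose without the pair of samples that stood apart. Of 10 inner root sheath markers 8 were below the filter, 1 rose and 1 fell. Their sum of 80.7 to 98.6 FPKM in the controls and 20.3 to 30.2 FPKM in the knockouts was mostly Gata3, which is also expressed in epidermis and read 88.9 ± 9.98 and 18.4 ± 3.95 FPKM. Tchh, the marker that rose, read 1.74 ± 0.385 and 2.87 ± 0.656 FPKM (SD, n = 3 each), a call lost without Control replicate 1 or 2 or Spry1_KO replicate 1 or 2. Below the filter, Krt73 averaged 0.0416 FPKM in the controls and 1.25 FPKM in the knockouts. Krt72, Krt73, Krt25 and Krt26 of that list were at 0 in at least 1 sample. Hair shaft markers summed to 14.6 to 19.1 FPKM and 7.46 to 9.88 FPKM, with 9 of 12 below the filter and Krt33b at 0 in every sample. Krt32, at 6.72 ± 1.41 and 0.554 ± 0.143 FPKM (SD, n = 3 each), carried most of that difference. The part of these cell types in the stress keratin results was not tested.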

How the data were processed

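Gene expression was measured by RNA-seq in 6 samples of mouse back epidermis. The authors deposited 1 table of FPKM values. HISAT2 2.0.5, featureCounts 1.5.0-p3 and the build GRCm38 are named per the submitters' processing notes. For annotation release, strandedness and filters the labels used here give no details.

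Genotype was tested on log2(FPKM + 1) with limma-trend (limma 3.58.1 in R 4.3.3) and no covariate, keeping genes whose mean over the 6 samples reached 1 FPKM. P-values were two-sided and adjusted by Benjamini-Hochberg over all genes tested, with a threshold of 0.05. Ratios and shares were tested by exact permutation (scipy 1.17.1). FPKM times exon length (GENCODE M21, 54495 IDs matched) gave whole reads, within 0.1, for 97.0% to 97.3% of values once divided by 1 constant per sample. Sequences came from GENCODE M21 transcripts.

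The members and lists were chosen with earlier results of these data known. Named genes were the members, keratins with at least 100 FPKM in either genotype, up to 4 genes with the lowest p per pathway list, and the 5 profiles closest to the members' mean. Marker lists are given as counts and sums. Postn, Gata3, Tchh, Lgr6, Krt2, Krt8, Krt18, Krt19, Krt32, Krt73, Krt42, Krt90, Gm5414, Gm5478, Gm11597, Gm49428, Fosl1 and Hbegf were chosen after their values were seen. On simulated reads with a set dispersion of 0.02, 20 of 67 genes changed 1.5-fold and 62 of 67 changed 2-fold were recovered, and 9 of 11741 unchanged genes were called. Replicates differed by 11.8 to 60.8 in chi-square per gene, above sampling noise.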

Additional observations from a re-analysis of the deposited data

How the results depend on the processing

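Over 15 alternatives Krt6a, Krt6b, Krt16 and Krt17 stayed higher in the knockouts and past the threshold, with log2 fold changes of 4.06 to 5.02, 9.33 to 11.30, 6.84 to 7.60 and 1.27 to 1.75 and adjusted p up to 0.00143, 0.00026, 0.000638 and 0.0142. Krt75 passed under none (adjusted p of 0.235 to 0.943). The log2 fold change of Krt75 was -0.094 with TPM scaling, -0.34 without Control replicate 3 and Spry1_KO replicate 2 together, and -0.13 to 0.43 leaving out 1 sample at a time; the cause was not tested.

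TPM scaling, which moved the median of all genes by -0.25, gave 2055 higher and 4470 lower genes, against 3736 and 3079. Limma-voom on recovered reads gave 2764 and 3615, and scaling to recovered reads, chosen after seeing the data, as was leaving out the pair, gave 2900 and 3742. The type II to type I difference was -2.54 for Krt6a over Krt16 and 3.16 for Krt6a over Krt17, both without Krt6b. For the sums it was 2.64 to 3.15 without any 1 sample. With a replicate block 5834 genes passed against 6815, the type II to type I difference was 2.84 and the share difference 20.1 points, each with a paired exact permutation p of 0.25, the smallest 3 pairs allow. The titles share only replicate numbers: the deviations of same-numbered samples correlated at -0.0981, -0.111 and -0.125 across genes, and none correlated best with its own number. With the block, 8 of the 24 tested transcription factors rose and 2 fell, against 7 and 6.

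Depth limits Krt6b in the controls, where 9 to 40 reads were recovered.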

Other observations

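Hbegf and Fosl1 were among the genes that set Control replicate 3 apart from the other controls. Hbegf, an EGF receptor ligand released after wounding, read 2.77, 8.37 and 46.0 FPKM in Control replicates 1 to 3. Its knockout levels were 54.8, 41.0 and 37.4 FPKM. Fosl1, an AP-1 factor, was at 0.900, 1.41 and 22.3 FPKM in these controls, against 13.6, 17.9 and 28.8 FPKM across the knockouts. For both genes Control replicate 3 lay within the range of the knockouts, and neither passed the test (limma adjusted p of 0.0882 and 0.093). The same sample was the lowest of all 6 for Krt6a, Krt6b, Krt17 and Krt75, and the middle control for Krt16. The simple epithelial keratins Krt8, Krt18 and Krt19 also read higher in Control replicate 3, at 5.19, 6.46 and 5.81 FPKM. The other controls read 0.0884 to 0.757 FPKM for them. Spry1_KO replicate 3 read 3.10, 3.09 and 3.90 FPKM, against 0.0883 to 0.589 FPKM in the other knockouts. Hbegf, Fosl1 and these keratins were picked after their values were seen, and they stand for no wider group of genes.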
